A study of Mus musculus with 26 samples.

Results

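The circadian clock genes described here are Arntl (also called Bmal1), Clock, Per1, Per2, Per3, Cry1, Cry2, Nr1d1, Nr1d2 and Dbp. They are 10 of the 39179 genes in the count tables, and all 10 were among the 16325 genes with enough counts to be tested. They were picked out by gene symbol, without a cut on a measured value, but with earlier results of these data known. The genes with calls below are Arntl (ENSMUSG00000055116, chromosome 7), Clock (ENSMUSG00000029238, chromosome 5), Per1 (ENSMUSG00000020893, chromosome 11), Per3 (ENSMUSG00000028957, chromosome 4), Cry2 (ENSMUSG00000068742, chromosome 2) and Nr1d2 (ENSMUSG00000021775, chromosome 14). RNA was measured by total RNA sequencing of cortex from C57BL/6J mice, an inbred strain, fed a diet with 60% of its kcal from fat (high-fat) or one with 6% (control). Mice underwent a focal ischemic stroke or, as the reference, a sham operation. The tissue, taken 3 days after the stroke, held the core and 1 to 2 mm around it. At 15 weeks of diet there were 6 high-fat stroke libraries and 4 control stroke libraries. At 6 weeks there were 6 high-fat stroke libraries, 4 control stroke libraries, 3 high-fat sham libraries and 3 control sham libraries. Sham cortex at 15 weeks was not analysed here.

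In the mammalian clock, the proteins of Arntl and Clock act as a pair that binds E-box sequences and switches on the Per, Cry and Nr1d genes and Dbp. PER and CRY proteins then build up and inhibit that pair, while the Nr1d proteins repress Arntl through ROR elements, where the ROR proteins activate it. Dbp encodes a factor that binds D-box sequences, which occur in promoters of Per genes. In mouse tissues Arntl RNA is usually high at the time of day when RNA of the Per genes, Nr1d1 and Dbp is low, so the level of each gene depends on when tissue is taken. The labels give no time of day for these libraries, and its part in the values below was not tested.

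The promoters of 3 members are shown because their levels are followed through the comparisons below and each holds a clock element near its start. RefSeq windows of 300 bases (250 before and 50 after a start site, build GRCm38.p6) were found for 9 members, and both strands were searched for the E-box CACGTG, the D-box TTATGNAA, the ROR element TAGGTCA and the cAMP response core TGACGT. The sequences run 5′ to 3′ on the gene's strand, with matches in capitals, and no match shown overlaps another. They lie at chr4:151044616-151044915 on the minus strand for Per3, chr7:113207261-113207560 on the plus strand for Arntl and chr11:69098699-69098998 on the plus strand for Per1.
Per3: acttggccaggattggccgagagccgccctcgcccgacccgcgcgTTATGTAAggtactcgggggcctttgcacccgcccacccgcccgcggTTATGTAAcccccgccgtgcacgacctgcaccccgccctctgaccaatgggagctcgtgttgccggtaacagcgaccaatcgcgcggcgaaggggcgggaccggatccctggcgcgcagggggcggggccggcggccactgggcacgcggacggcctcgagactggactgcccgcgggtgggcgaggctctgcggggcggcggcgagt
Arntl: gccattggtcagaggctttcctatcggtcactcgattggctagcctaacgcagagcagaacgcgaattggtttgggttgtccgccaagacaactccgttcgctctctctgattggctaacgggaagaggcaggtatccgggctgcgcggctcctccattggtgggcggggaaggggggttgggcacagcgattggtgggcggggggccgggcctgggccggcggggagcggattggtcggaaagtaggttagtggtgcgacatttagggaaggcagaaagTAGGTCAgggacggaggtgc
Per1: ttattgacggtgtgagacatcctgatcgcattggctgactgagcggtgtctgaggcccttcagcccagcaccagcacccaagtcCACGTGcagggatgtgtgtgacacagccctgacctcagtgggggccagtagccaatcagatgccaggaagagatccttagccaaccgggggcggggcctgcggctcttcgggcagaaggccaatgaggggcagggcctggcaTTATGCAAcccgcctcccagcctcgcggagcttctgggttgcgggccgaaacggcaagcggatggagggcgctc
Per3 held a D-box match at position -205 and another at position -158 from its start site. Arntl held a ROR element match at position 31, downstream of the start of its second window. Per1 held an E-box match at position -166 and a D-box match at position -24. Among all 32851 promoter windows of the same length, 7.15% held the E-box letters, 3.38% the D-box, 2.61% the ROR element and 7.51% the cAMP response core. Elsewhere among the members' windows, Cry1 held an E-box match at position -60 and a second Per1 window held the cAMP response core at position -132. A match is a string of letters and not a measured binding site.

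Each library held between 11400882 and 16962682 counts in genes, and the members had between 203 and 3141 counts per library. The labels do not say whether each library is a separate mouse, so each p-value reflects only how far these libraries spread. Levels are given as CPM, the count scaled to library size with TMM factors. Per kilobase of annotated exon, Nr1d2 had the highest mean level, 31.3 CPM per kb, and Per3 the lowest, 4.59 CPM per kb. Dbp was at 16.8, Cry2 at 13.3, Clock at 11.6 and Nr1d1 at 9.28 CPM per kb, and the other members lay between 4.70 and 6.21. Exons of Dbp overlapped those of Sphk2 on the other strand over 18.0% of their length, and those of Nr1d1 overlapped Thra over 8.55%. Whether counting used strand is not given in the sources used here, so reads of these pairs may be mixed.

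Neuron genes summed to between 4440 and 7400 CPM in these libraries. Markers of the hypothalamus and suprachiasmatic nucleus, the site of the central clock, summed to between 7.3 and 16.1 CPM: Six6 had no count in any group, and 1 of the 8 markers, Rgs16, passed the filter on low counts. Some libraries stood apart. The choroid plexus list summed to 937 CPM in high-fat stroke replicate 6 at 6 weeks and 267 CPM in high-fat sham replicate 2. At 15 weeks, high-fat stroke replicate 1 and control stroke replicate 3 had low sums of microglia and macrophage genes, 258 and 294 CPM, where the sums reached 1120 CPM on the high-fat diet and 923 CPM on the control diet. Calls that change without these libraries are named beside the results.

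**Figure D1:**
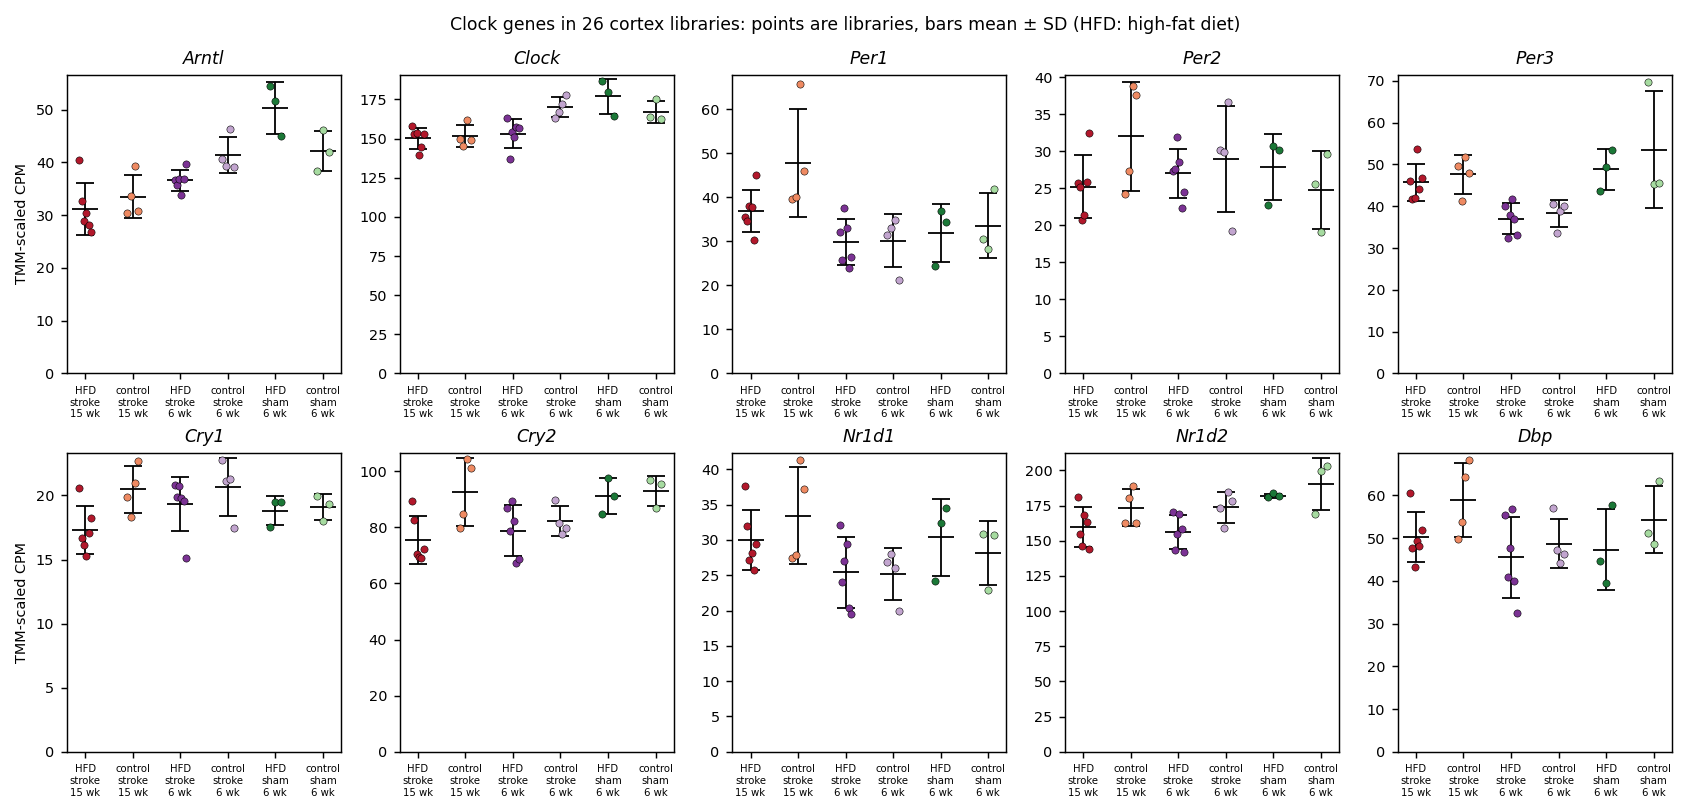
TMM-scaled CPM (vertical axis, from 0) of the 10 clock genes in every library, by operation, diet and weeks. Points are libraries and bars show the mean ± SD (n = 6, 4, 6, 4, 3 and 3 from left to right). Arntl was lowest in the 15-week high-fat stroke libraries (31.2 CPM on average) and highest in the high-fat sham libraries (50.3 CPM).

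Over all 6 groups, Arntl was lowest in the 15-week stroke groups and highest in high-fat sham, and Per3 was lowest in the 6-week stroke groups. By edgeR's quasi-likelihood test, any difference among the groups was called for 6 of 10 members (Arntl, Clock, Per1, Per3, Cry2 and Nr1d2), beside 37.3% of all genes. DESeq2 called the same 6, and voom called Cry1 in place of Per1. Mean Arntl levels were 31.2 ± 4.92 CPM (SD, n = 6) in 15-week high-fat stroke and 33.5 ± 4.12 CPM (SD, n = 4) in 15-week control stroke. They were 36.6 ± 1.95 (SD, n = 6) in 6-week high-fat stroke, 41.4 ± 3.38 (SD, n = 4) in 6-week control stroke, 50.3 ± 4.89 (SD, n = 3) in high-fat sham and 42.1 ± 3.82 (SD, n = 3) in control sham. From high to low, the neighbouring groups whose means differed by more than the larger SD were high-fat sham against control sham and 6-week control stroke against 6-week high-fat stroke.

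For the other members, mean levels ± SD are given for 15-week high-fat stroke, 15-week control stroke, 6-week high-fat stroke, 6-week control stroke, high-fat sham and control sham, in that order. Clock, the partner of Arntl, averaged 150.2 ± 6.72, 152 ± 7.1, 153 ± 9.02, 170.0 ± 6.4, 177 ± 11.4 and 167 ± 7.07 CPM. Its one gap between neighbouring means larger than the SD was that of control sham above 6-week high-fat stroke.

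Among the inhibitors, Per1 averaged 36.9 ± 4.85, 47.8 ± 12.3, 29.9 ± 5.26, 30.1 ± 6.05, 31.9 ± 6.67 and 33.6 ± 7.35 CPM. Per2 averaged 25.2 ± 4.21, 32.0 ± 7.32, 27.0 ± 3.31, 29.0 ± 7.18, 27.8 ± 4.47 and 24.7 ± 5.29 CPM, and Per3 45.8 ± 4.38, 47.6 ± 4.57, 37.0 ± 3.7, 38.3 ± 3.17, 48.9 ± 4.9 and 53.5 ± 14 CPM. The 15-week high-fat stroke libraries lay above all 6-week control stroke libraries for Per3, while no neighbouring means of Per1 or Per2 were farther apart than the SD. Cry1 averaged 17.3 ± 1.87, 20.5 ± 1.83, 19.3 ± 2.11, 20.7 ± 2.27, 18.8 ± 1.14 and 19.1 ± 1.03 CPM. Cry2 averaged 75.5 ± 8.47, 92.6 ± 12.1, 78.8 ± 9.17, 82.2 ± 5.31, 91.1 ± 6.54 and 93.0 ± 5.41 CPM, with a gap larger than the SD for high-fat sham above 6-week control stroke.

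Of the repressors of Arntl, Nr1d1 averaged 30.0 ± 4.29, 33.4 ± 6.88, 25.4 ± 5.03, 25.2 ± 3.63, 30.4 ± 5.45 and 28.2 ± 4.52 CPM. Nr1d2 averaged 159.8 ± 14.3, 174 ± 13.2, 156 ± 12.1, 174 ± 10.9, 182 ± 1.42 and 191 ± 18.5 CPM. The D-box factor gene Dbp averaged 50.2 ± 5.84, 59 ± 8.67, 45.6 ± 9.47, 48.7 ± 5.71, 47.3 ± 9.49 and 54.3 ± 7.86 CPM. For Cry1, Nr1d1, Nr1d2 and Dbp, neighbours in the order of the means differed by no more than the larger SD. The call of any difference for Per1 was lost without 15-week control stroke replicate 3, that for Cry2 in 7 of the 26 fits that each leave out 1 library, and that for Nr1d2 in 3. It was also lost for Nr1d2 without both libraries rich in choroid plexus genes, and for Per1 without both low in microglia genes. With a covariate for the fragments counted outside genes, Per1 and Per3 were not called.

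After stroke on the high-fat diet at 6 weeks, 4 clock genes were lower than after sham surgery: Arntl, Clock, Per3 and Nr1d2. They include both partners of the activator pair, a period gene whose product takes part in the feedback, and a repressor of Arntl. None of the 10 was called higher, and 8.85% of all genes were called lower, of 23.1% called in either direction. On library totals with no scaling factor, Arntl was the 1 member called, and 573 of the 3483 genes called were lower, where TMM gave 1445 of 3769. The median log2 fold change of the 10 members was -0.21, against -0.02 over all genes tested.

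Arntl had 33.8 CPM in the lowest, 36.8 in the median and 39.8 in the highest high-fat stroke library, against 54.5, 51.6 and 44.9 CPM in the high-fat sham libraries. All 6 stroke libraries thus lay below all 3 sham libraries, and the log2 fold change was -0.46 ± 0.10 (SE, edgeR adjusted p = 0.00229). Clock, the partner of Arntl, had 137, 156 and 163 CPM in the lowest, median and highest high-fat stroke library, against 187, 179.9 and 164 CPM in the sham libraries. The groups were apart by a narrow margin, with a log2 fold change of -0.21 ± 0.06 (SE, edgeR adjusted p = 0.0104). Both genes were called in every fit that left out 1 of the 26 libraries, while on library totals Clock, like Per3 and Nr1d2, was not called.

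Per3, the third period gene, had 32.5 CPM in the lowest, 37.4 in the median and 41.7 in the highest high-fat stroke library, against 43.7, 49.4 and 53.5 CPM in the sham libraries. The groups did not overlap, and the log2 fold change was -0.40 ± 0.12 (SE, edgeR adjusted p = 0.0145). Nr1d2 had 142, 157 and 170.2 CPM in the lowest, median and highest stroke library, against 181, 184 and 182 CPM in the sham libraries. These groups did not overlap either, and the log2 fold change was -0.22 ± 0.08 (SE, edgeR adjusted p = 0.0406). Without both libraries rich in choroid plexus genes, Arntl and Clock were called and Per3 (adjusted p = 0.0979) and Nr1d2 (adjusted p = 0.177) were not. Leaving out high-fat sham replicate 2 or 3 alone also removed the calls for Per3 and Nr1d2, and the Nr1d2 call was lost in 12 of 26 such fits.

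Cry2, whose product inhibits the activator pair, had 67.2, 80.5 and 89.2 CPM in the lowest, median and highest high-fat stroke library, against 84.6, 97.7 and 91.2 CPM in sham. The groups overlapped, and with a log2 fold change of -0.21 ± 0.10 it missed the threshold (edgeR adjusted p = 0.128). The other 5 members had log2 fold changes between -0.25 (Nr1d1) and 0.04 (Cry1), and their groups overlapped. The 95% intervals were -0.48 to 0.29 for Per1, -0.42 to 0.33 for Per2, -0.17 to 0.25 for Cry1, -0.60 to 0.09 for Nr1d1 and -0.37 to 0.26 for Dbp. A change in Per1 or Nr1d1 of the size seen for Arntl was therefore within what these libraries allow.

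On the control diet, stroke left 1 clock gene lower, Per3, and none was called higher. Of all genes 2.57% were called lower and 7.68% in either direction. Per3 had 40.6, 33.7, 38.8 and 40.2 CPM in the control stroke libraries, against 69.7, 45.4 and 45.6 CPM in the control sham libraries. Every stroke library lay below every sham library, and sham replicate 1 stood far above the other two. The log2 fold change was -0.48 ± 0.13 (SE, edgeR adjusted p = 0.0202), and the call was lost without that sham replicate (-0.25, edgeR adjusted p = 0.243) or without stroke replicate 2 (-0.43, edgeR adjusted p = 0.0813). Arntl had 40.7, 39.2, 46.3 and 39.2 CPM in control stroke, against 38.5, 46.1 and 41.9 CPM in control sham. Its groups overlapped, and the 95% interval of its log2 fold change ran from -0.26 to 0.20. For Clock the interval ran from -0.10 to 0.15. The median over the 10 members was -0.15, against 0.00 over all genes tested.

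**Figure D2:**
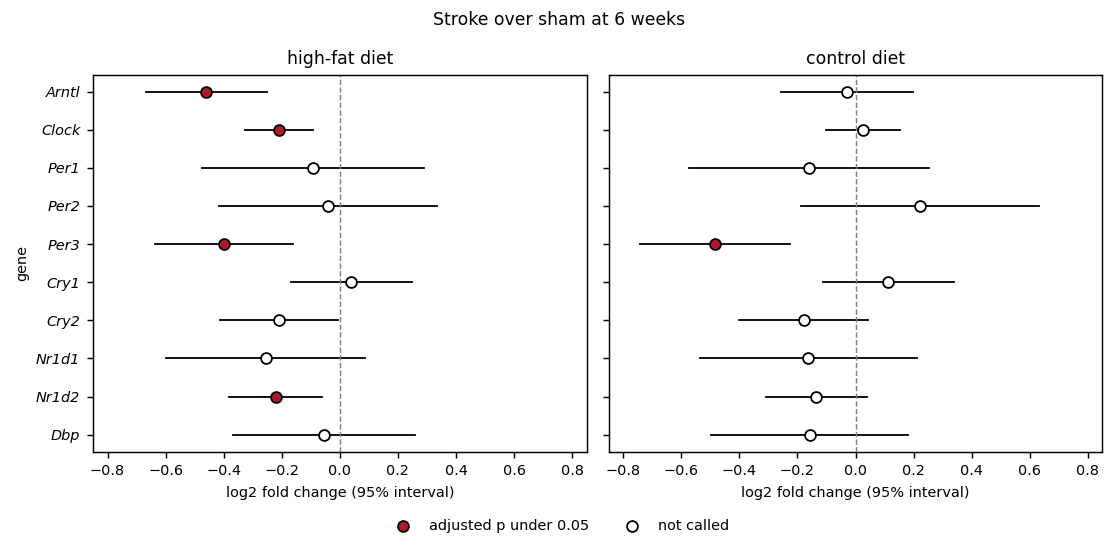
Log2 fold change of stroke over sham at 6 weeks (horizontal axis, points, with 95% intervals) for each clock gene (vertical axis), on the high-fat diet (left) and the control diet (right). Red points passed the adjusted threshold: 4 on the high-fat diet and 1, Per3, on the control diet.

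Whether stroke acted differently on the 2 diets was tested directly, and edgeR called 0 of 10 members and 0% of all genes, as did DESeq2 and voom for the members. The members with an unadjusted p under 0.05 numbered 2, and 5.6% of all genes had one. Arntl had a log2 difference of -0.43 ± 0.15 and Clock of -0.23 ± 0.08 (SE, edgeR adjusted p = 0.832 for both). A different response of Arntl on the 2 diets is thus not shown. Averaged over both diets, which reuses the same libraries, stroke left Arntl (-0.24 ± 0.08), Per3 (-0.44 ± 0.09), Cry2 (-0.19 ± 0.07) and Nr1d2 (-0.18 ± 0.06) lower, with edgeR adjusted p-values of 0.0157, 0.00039, 0.046 and 0.0207. In this average 29.9% of all genes were called, 12.8% as lower. On library totals 1107 of 4480 calls were lower, where TMM gave 2092 of 4887. The Cry2 call was also lost without both libraries rich in choroid plexus genes. Leaving out 1 library removed the Cry2 call in 15 of 26 fits and the Nr1d2 call in 1, without control stroke replicate 2, while Arntl and Per3 were called in all 26. Clock was at -0.09 ± 0.04 (SE, edgeR adjusted p = 0.104) and was called without both 15-week libraries low in microglia genes.

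The share of fragments counted outside genes moved with surgery. It was 20.5% to 22.4% in high-fat stroke and 23.2% to 27.6% in high-fat sham, and 18.9% to 22.6% in control stroke and 23.4% to 26.7% in control sham, with no overlap on either diet. With this share as a covariate Arntl was the member called on the high-fat diet and none was on the control diet, and its part in the results was not tested.

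Cell type markers moved with these results too. The neuron list summed to between 4980 and 5950 CPM in high-fat stroke and between 6590 and 7400 CPM in high-fat sham, and 4 of its 10 genes were called lower. On the control diet the sums were 5310 to 6110 CPM in stroke and 6530 to 6800 CPM in sham, with 0 of 10 called by edgeR. Microglia and macrophage genes summed to between 531 and 869 CPM in high-fat stroke, against 186 to 220 CPM in high-fat sham, with 10 of 10 higher. In control stroke they summed to 395 to 703 CPM, against 199 to 210 CPM in control sham, with 9 of 10 higher. Blood genes summed to 163 to 307 CPM in high-fat stroke and 78.3 to 109 CPM in high-fat sham, with 5 of 5 higher. Endothelial genes summed to 166 to 221 CPM in high-fat stroke and 115 to 152 CPM in high-fat sham, with 3 of 5 higher. In control stroke edgeR called 0 of 5 in both lists, where blood genes summed to 154 to 220 CPM in stroke and 132 to 159 CPM in sham and endothelial genes to 165 to 176 CPM in stroke and 129 to 147 CPM in sham. With the neuron list mean as a covariate, Arntl was the member still called on the high-fat diet and Per3 on the control diet. With the microglia and macrophage mean as a covariate, a mean whose list sums did not overlap between stroke and sham at 6 weeks, no member was called on either diet, and on the high-fat diet 107 genes in all were. The part of cell makeup in the clock gene results was not tested. In these bulk samples fewer cells of a type and less RNA per cell cannot be told apart.

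A second list held 20 other clock genes, all of them tested. On the high-fat diet 6 were lower and 1 was higher after stroke, with a median log2 fold change of -0.17 (-0.02 over all genes). Rora and Rorb, which encode ROR factors that activate Arntl, averaged 149.9 ± 14.2 and 74.7 ± 13.7 CPM in stroke (SD, n = 6) and 204 ± 18.4 and 115 ± 33.0 CPM in sham (SD, n = 3). Their log2 fold changes were -0.45 ± 0.10 and -0.62 ± 0.18 (SE, edgeR adjusted p = 0.00369 and 0.0155). Npas2, a close relative of Clock that can pair with ARNTL, fell by 0.44 ± 0.14 on the log2 scale (edgeR adjusted p = 0.0202). Btrc, part of a ubiquitin ligase that marks PER proteins for degradation, fell by 0.31 ± 0.09 (edgeR adjusted p = 0.0127). Timeless, which also acts in DNA replication, averaged 5.96 ± 0.50 CPM in stroke (SD, n = 6) and 3.68 ± 0.86 CPM in sham (SD, n = 3), a log2 rise of 0.70 ± 0.21 (edgeR adjusted p = 0.021). On the control diet the list had 1 call, Wee1, a cell cycle kinase gene under clock control, which fell by 0.45 ± 0.12 on the log2 scale (edgeR adjusted p = 0.0221), and its median was -0.14 (0.00 over all genes).

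Glucocorticoids and neuronal activity are known to induce Per1, so both response lists were set beside the members. Of 14 glucocorticoid response genes, 4 were lower and 2 higher after stroke on the high-fat diet, and 6 were lower on the control diet. Tsc22d3 and Klf9, induced by glucocorticoids in many tissues and named after their values were seen, fell by 0.57 and 0.39 on the log2 scale on the high-fat diet and by 0.89 and 0.44 on the control diet. Per1 itself was at -0.09 and -0.16, neither called. Of 13 immediate early genes, which neuronal activity induces, 1 was called in these comparisons, Junb, higher on the high-fat diet (0.75 ± 0.17, edgeR adjusted p = 0.00375).

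The diet itself was compared within stroke libraries at each time and within sham. At 6 weeks edgeR called 0 of 10 members in stroke cortex and 0% of all genes, and DESeq2 and voom called no member. At an unadjusted p under 0.05 there were 2 members and 6.99% of all genes. Clock had 137, 156 and 163 CPM in the lowest, median and highest high-fat library, against 163, 167, 172 and 178 CPM in the control libraries, apart by less than the rounding of these values (log2 fold change -0.15 ± 0.05, SE, edgeR adjusted p = 0.667). Without high-fat replicate 2 the value was -0.0976. Nr1d2 had 142, 157 and 170.2 CPM in the lowest, median and highest high-fat library, against 173, 159, 184 and 178 CPM in the control libraries. Its groups overlapped (-0.15 ± 0.07, SE, edgeR adjusted p = 0.667). In sham cortex edgeR called 0 members and 0% of all genes, DESeq2 and voom no member, and 1 member, Arntl, had an unadjusted p under 0.05, beside 4.79% of all genes. Arntl had 54.5, 51.6 and 44.9 CPM in high-fat sham, against 38.5, 46.1 and 41.9 CPM in control sham (0.26 ± 0.12, SE, edgeR adjusted p = 0.965).

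At 15 weeks all 10 members had a lower fitted level in high-fat than in control stroke cortex, beside 49.6% of all genes. Their median log2 fold change was -0.20 against 0.00 over all genes. At 6 weeks 9 of the 10 members were below 0, beside 51.5% of all genes, with a median of -0.09. Members were measured in the same libraries and some varied together, so their signs are not separate results. None passed adjustment in edgeR, DESeq2 or voom, edgeR called 0% of all genes, and 4 members and 7.96% of all genes had an unadjusted p under 0.05. Cry2 had 69.2, 71.3 and 89.5 CPM in the lowest, median and highest high-fat library, against 79.8, 84.7, 105 and 101 CPM in the control libraries (-0.29 ± 0.09, SE, edgeR adjusted p = 0.471). The groups overlapped, with high-fat replicate 1, which is low in microglia genes, above 2 control libraries and high-fat replicate 2 above 1. Cry1, the other cryptochrome gene, had 15.3, 16.9 and 20.6 CPM in the lowest, median and highest high-fat library, against 19.9, 18.3, 21.0 and 22.7 CPM in the control libraries (-0.24 ± 0.09, SE, edgeR adjusted p = 0.559). Per1 had 30.4, 36.7 and 45 CPM in the lowest, median and highest high-fat library, against 39.6, 40.1, 65.7 and 45.9 CPM in the control libraries. Per2 had 20.7, 25.5 and 32.5 CPM in the lowest, median and highest high-fat library, against 24.2, 27.3, 38.8 and 37.6 CPM in the control libraries. The groups overlapped for both period genes, which had log2 fold changes of -0.37 ± 0.17 and -0.34 ± 0.17 (SE, edgeR adjusted p = 0.606 and 0.628). Without high-fat replicate 1 and control replicate 3 together, these values were -0.16 for Per1, -0.24 for Per2, -0.28 for Cry1 and -0.28 for Cry2, and without control replicate 3 alone Per1 was at -0.18. Immediate early genes summed to 331 to 549 CPM on the high-fat diet and 502 to 897 CPM on the control diet. Their median log2 fold change was -0.63, with 0 of 13 called. Striatum genes summed to 77.4 to 674 CPM and 106 to 291 CPM, with a median of 0.92 and 0 of 6 called. The part of either list in the diet values was not tested. Whether the diet effect differed between 15 and 6 weeks was tested too, and edgeR called 0 members and 0% of all genes, with 0 members and 4.85% of all genes at an unadjusted p under 0.05. DESeq2 and voom called none.

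**Figure D3:**
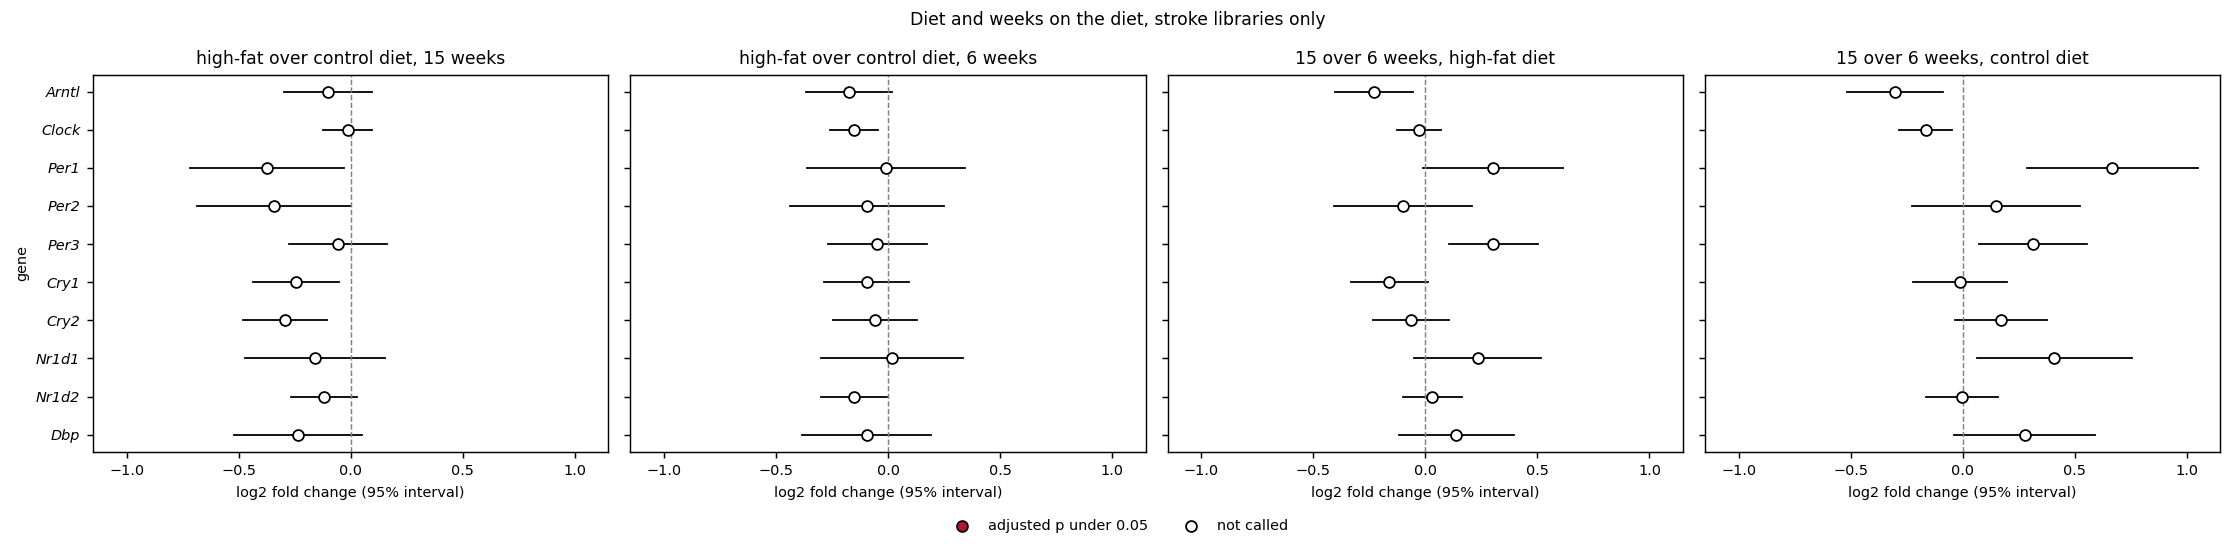
Log2 fold changes with 95% intervals (horizontal axis) of each clock gene (vertical axis) among stroke libraries, for high-fat over control diet at 15 and at 6 weeks and for 15 over 6 weeks on each diet. No point passed the adjusted threshold. All 10 points lie below 0 for the diet at 15 weeks, and 9 do at 6 weeks.

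Between 15 and 6 weeks of diet, fitted levels of Arntl were lower and those of Per3 higher on both diets, without passing adjustment in edgeR. The labels give no age or batch, so weeks on the diet, age and separate handling cannot be told apart. The share of fragments counted outside genes was 22.8% to 32.1% at 15 weeks and 20.5% to 22.4% at 6 weeks on the high-fat diet, and 22.7% to 27.9% at 15 weeks and 18.9% to 22.6% at 6 weeks on the control diet, so it did not overlap between the times, and its part in the values below was not tested. On the high-fat diet edgeR called 0 of 10 members and 2.35% of all genes. At an unadjusted p under 0.05 there were 2 members, a share near the 17.7% of all genes. Arntl had 26.8, 29.7 and 40.4 CPM in the lowest, median and highest 15-week library, against 33.8, 36.8 and 39.8 CPM at 6 weeks (-0.23 ± 0.09, SE, edgeR adjusted p = 0.15). The highest 15-week value was that of replicate 1, the library low in microglia genes. Per3 had 41.8, 45.1 and 53.7 CPM in the lowest, median and highest 15-week library, against 32.5, 37.4 and 41.7 CPM at 6 weeks, with no overlap (0.30 ± 0.10, SE, edgeR adjusted p = 0.0888). DESeq2 called Per3 here, and voom called Arntl and Cry1.

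On the control diet edgeR called 0 of 10 members and 0.564% of all genes. At an unadjusted p under 0.05 there were 5 members and 16.8% of all genes. DESeq2 called Per1 and voom called Arntl. Per1 had 39.6, 40.1, 65.7 and 45.9 CPM at 15 weeks, against 31.4, 33.0, 34.9 and 21.3 CPM at 6 weeks. All 4 later libraries lay above all 4 earlier ones, and the log2 fold change was 0.67 ± 0.18 (SE, edgeR adjusted p = 0.0948), or 0.49 without both libraries low in microglia genes. Immediate early genes moved with it. Their sum was 502 to 897 CPM at 15 weeks and 349 to 547 CPM at 6 weeks, and 1 of 13, Junb, was called higher (0.74 ± 0.17, SE, edgeR adjusted p = 0.0448). Striatum genes summed to 106 to 291 CPM at 15 weeks and 267 to 546 CPM at 6 weeks. Their median log2 fold change was -1.34, with 0 of 6 called. The part of either list in the Per1 result was not tested. Arntl had 30.4, 33.6, 39.3 and 30.8 CPM at 15 weeks, against 40.7, 39.2, 46.3 and 39.2 CPM at 6 weeks (-0.30 ± 0.10, SE, edgeR adjusted p = 0.159). Replicate 3, the library low in microglia genes, was the one that overlapped. Clock was also apart, with 149.9, 145, 162 and 149 CPM at 15 weeks, against 163, 167, 172 and 178 CPM at 6 weeks (-0.17 ± 0.06, SE, edgeR adjusted p = 0.165). Per3 at 0.31 ± 0.12 and Nr1d1 at 0.41 ± 0.17 were the other two, with edgeR adjusted p-values of 0.191 and 0.226.

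Both 15-week libraries low in microglia genes had the highest Arntl and Clock levels of their groups. Without them, Arntl was called lower at 15 weeks on the high-fat diet (-0.30, edgeR adjusted p = 0.00846) and on the control diet (-0.37, edgeR adjusted p = 0.0221), and Per3 was called higher on the high-fat diet (0.31, edgeR adjusted p = 0.0481). This choice was made after the values were seen. The 15-week control stroke libraries enter both the comparison with 6 weeks and the comparison of diets at 15 weeks, so a high value there appears in both. Bhlhe40 and Ciart, which encode repressors of the clock's activator pair, had a similar layout. Bhlhe40 averaged 60.1 ± 6.40 CPM in 15-week high-fat stroke (SD, n = 6), 82.6 ± 10.1 CPM in 15-week control stroke (SD, n = 4) and 58 ± 11.1 CPM in 6-week control stroke (SD, n = 4). Ciart averaged 11.4 ± 1.24, 16.4 ± 3.95 and 10.3 ± 1.02 CPM in the same 3 groups. Neither was called in either comparison (edgeR adjusted p between 0.0769 and 0.471), they were named after their values were seen, and of the 20 other clock genes edgeR, at the adjusted threshold, called 0 in both.

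The variation between libraries of the same group was larger for some members than others. The within-group SD of log2 CPM was 0.28 for Per1 and Per2, 0.25 for Nr1d1 and 0.23 for Dbp. Of all tested genes, 31.2%, 31.1%, 34.4% and 38.1% had a larger SD than Per1, Per2, Nr1d1 and Dbp. The SD was 0.07 for Clock, where 96.6% of all tested genes had a larger one, and 0.11 for Nr1d2 (78.8%). Clock had 1858 to 2701 counts per library and Nr1d2 1879 to 3141, and the part of count size in these SDs was not tested. Arntl, Cry1, Cry2 and Per3 lay between 0.14 and 0.17.

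Over all libraries, deviations from the group mean were positively related among Per1, Per2, Cry1, Cry2, Nr1d1 and Dbp. Deviations of log2 CPM from the group mean were correlated over the 26 libraries for all 45 pairs of members, with p-values from 100000 permutations of libraries within groups and adjustment over the 45 pairs. By Pearson's r, 14 pairs passed, all positive, and by Spearman's rho 13 did. Of the 14, 12 were among the 15 pairs of Per1, Per2, Cry1, Cry2, Nr1d1 and Dbp, a set named after its values were seen, whose r ran from 0.44 to 0.86. The highest was Cry2 with Nr1d1, r = 0.86 (permutation adjusted p = 0.000675) and rho = 0.82 (permutation adjusted p = 0.00112). Per1 with Per2 had r = 0.80 (permutation adjusted p = 0.000675) and rho = 0.82 (permutation adjusted p = 0.0009). Nr1d1 with Dbp had r = 0.74 (permutation adjusted p = 0.00334) and rho = 0.73 (permutation adjusted p = 0.00667). Without the 2 libraries farthest from the median of the first gene, r was 0.83, 0.74 and 0.72 for these pairs. Many genes outside the members had r values in the range of this set. Ranked by r with Per1 over all genes tested, Per2 was at 3, Nr1d1 at 23, Cry2 at 606, Cry1 at 994 and Dbp at 1252. The share of all gene pairs that would pass the same threshold was not computed.

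Arntl stood outside that set, with r between -0.05 and 0.29 with its 6 genes. It passed with Clock (r = 0.51, permutation adjusted p = 0.0387, rho = 0.54, permutation adjusted p = 0.0464) and Nr1d2 (r = 0.54, permutation adjusted p = 0.0387, rho = 0.44, permutation adjusted p = 0.114). Without the 2 libraries farthest from the median of Arntl, r was 0.40 and 0.34. Without both 15-week libraries low in microglia genes, 13 pairs passed, all within the set of 6, and Arntl had r = -0.34 with Nr1d1 and -0.47 with Dbp (permutation adjusted p = 0.27 and 0.0942). Within the 6 high-fat stroke libraries at 6 weeks alone, Arntl had r = -0.62 with Nr1d1 and -0.76 with Dbp (exact permutation p = 0.192 and 0.075), and Nr1d1 with Dbp had r = 0.95 (exact permutation p = 0.00833). Within the 6 at 15 weeks, Arntl had r = 0.89 with Nr1d1 and 0.68 with Dbp (exact permutation p = 0.0236 and 0.161), where replicate 1 was highest in all 3 genes. Within the set of 6, Per1 in these 15-week libraries had r = -0.12 with Cry2, 0.0885 with Nr1d1, 0.0683 with Dbp and 0.057 with Cry1 (exact permutation p = 0.792, 0.86, 0.89 and 0.921), against r = 0.885, 0.768, 0.701 and 0.454 in the 6-week libraries (exact permutation p = 0.0236, 0.0986, 0.138 and 0.392), and the difference between the times was not tested.

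**Figure D4:**
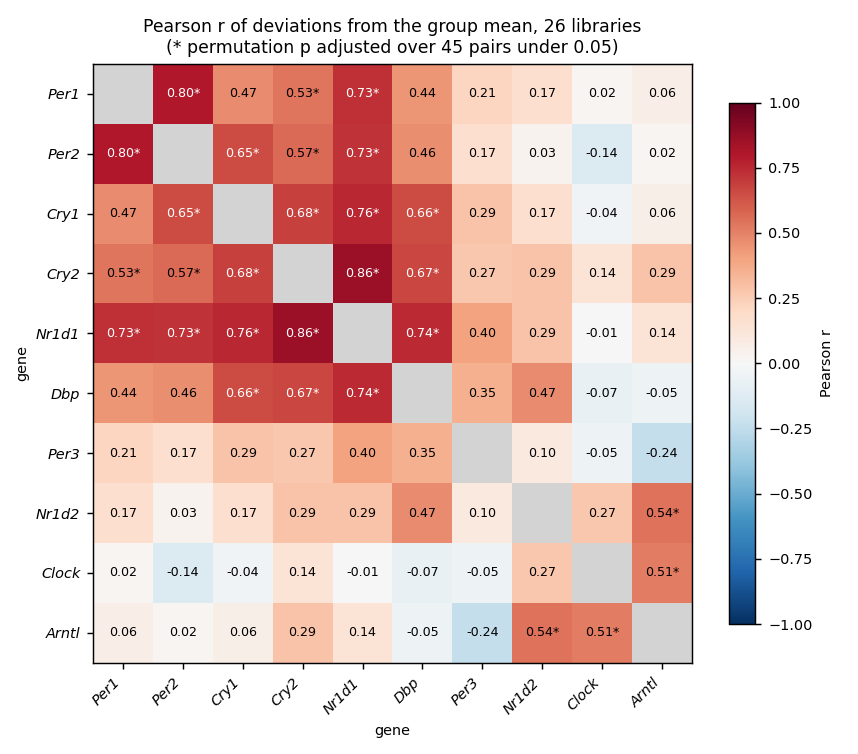
Pearson r (colour and number) of within-group deviations of log2 CPM for each pair of clock genes over 26 libraries, with genes on both axes. Asterisks mark the 14 pairs past the adjusted threshold, of which 12 lie in the block of Per1, Per2, Cry1, Cry2, Nr1d1 and Dbp.

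**Figure D5:**
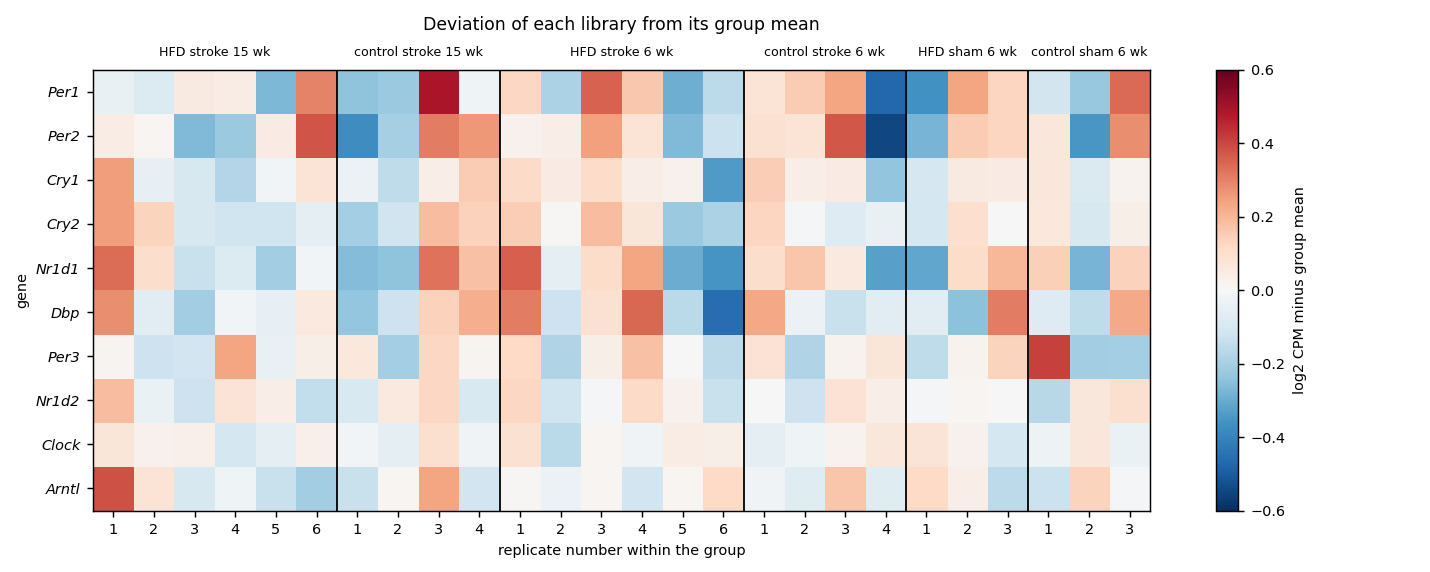
Deviation of log2 CPM from the group mean (colour) for each clock gene (vertical axis) in each library (horizontal axis, replicate number within group). Columns such as 15-week high-fat stroke replicate 1 are above the mean for most genes, and 6-week control stroke replicate 4 is low in Per1, Per2, Cry1 and Nr1d1.

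Marker lists moved with some members within groups as well. Of 70 relations between the 10 members and 7 list sums, 6 passed adjustment. Cry2 went with the neuron list (r = 0.75, permutation adjusted p = 0.0056, rho = 0.78) and against the microglia list (r = -0.62, permutation adjusted p = 0.0424, rho = -0.59). The neuron list also went with Nr1d1 (r = 0.59, permutation adjusted p = 0.0424, rho = 0.53) and with Dbp (r = 0.50, permutation adjusted p = 0.0492, rho = 0.47). Clock went against the microglia list (r = -0.535, permutation adjusted p = 0.0424, rho = -0.46), and Per1 with the immediate early list (r = 0.65, permutation adjusted p = 0.0424, rho = 0.67). Without the 2 libraries farthest from the median of the list, these r values lay between 0.41 and 0.68 in size, the lowest that of Dbp with the neuron list and the highest that of Per1. After the neuron list mean was taken out of the deviations, 4 of the 14 pairs passed, Per1 with Per2, Per1 and Per2 with Nr1d1, and Cry2 with Nr1d1, with r between 0.64 and 0.75. Striatum genes summed to 77.4 to 674 CPM in 15-week high-fat stroke and 128 to 554 CPM in 6-week high-fat stroke. No relation of the striatum list passed, but its r with the set of 6 was 0.46 to 0.54 (permutation adjusted p between 0.0805 and 0.115). With the other members its r was 0.03 to 0.42. The part of striatal tissue in the correlations was not tested.

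Ranks of members below are over all genes tested. Genes without a name or with a predicted, Rik, clone or mitochondrial name were left out of the names given. Genes whose within-group deviations were most like a member's are named by r, as a description over 26 libraries that share depth and cell makeup. For Per1 they were Inpp5j (0.835), Egr1 (0.82), Per2 (0.80), Srrm2 (0.80) and Mcm3ap (0.795), and the most negative were Tsen34 (-0.88), Rab1b (-0.84) and Ccz1 (-0.78). Another clock gene was thus among the 5 genes most like Per1, and Nr1d1 ranked 23. For Dbp they were Pfkm (0.84), Ogdhl (0.81), Rhobtb2 (0.80), Lpcat4 (0.79) and Scrn1 (0.79), with Agps (-0.81), Cdc16 (-0.79) and Akap13 (-0.775) at the other end. Nr1d1 ranked 18 for Dbp, Cry2 107 and Cry1 146, while Per2 ranked 1326 and Per1 1551. For Arntl they were Zfp148 (0.88), Ankib1 (0.86), Zfp292 (0.86), Rock2 (0.85) and Triqk (0.84), with Fen1 (-0.84), Natd1 (-0.83) and Gpsm3 (-0.83) at the other end. No other member was near the top for Arntl, where Nr1d2 ranked 1457 and Clock 1759.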

How the data were processed

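Total RNA libraries from 26 mouse cortex samples were sequenced by the authors as paired ends, after stranded total RNA library preparation, per the labels' protocols. The authors deposited whole-number read counts per Ensembl gene for each library. Trim Galore, STAR, featureCounts, HTSeq and the mm9 build are named, per the submitters' processing notes, without roles or versions. Summary entries that name no gene stayed out of library sizes, and fragments outside genes made up 18.9% to 32.1% of a library's fragments. Symbols came from GENCODE M21, which named 37607 of 39179 identifiers. The members and gene lists were chosen with earlier results of these data known.

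Genes passing filterByExpr (minimum count 10) were scaled by TMM and fitted with edgeR 4.0.16 (R 4.3.3, robust quasi-likelihood) with 1 mean per group over all 26 libraries, and 10 contrasts and 1 test of any difference were adjusted over 16325 genes by Benjamini-Hochberg at 0.05. Dispersion was 0.0184 over all genes, which is a coefficient of variation of 0.136 between libraries. Correlations used log2 CPM (prior count 2) less the group mean, with permutation of libraries within groups (Python 3.11.15, numpy 2.4.6). DESeq2 1.42.0, limma 3.58.1 (voom with quality weights), other scalings, filters, fits and covariates and left-out libraries were tried as alternatives. The fits were tested on simulated data. All 10 members are given in every group, and fold changes with errors for those called or with an unadjusted p under 0.05, other members by range. From the other clock genes, at most 4 calls in each direction are named, by smallest p, and for likeness the 5 highest and 3 most negative genes.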

Additional observations from a re-analysis of the deposited data

Results flagged for a closer look

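Cry1 in 6-week high-fat stroke replicate 6 was at 15.2 CPM, far below the other 5 libraries of its group, and this gap is what drew attention to it. The same library had a choroid plexus list sum of 937 CPM. Values were looked at in this way in 40 sets, each of 1 member in 1 group of 4 or 6 libraries. Chance picks out about 1 in 20 sets, and 1 value in the 40 sets was flagged.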

How the results depend on the processing

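Of the members called after stroke on the high-fat diet (4), 1 was called on library totals, 1 with the neuron covariate, 1 with the outside-genes covariate (the fragments counted outside genes), 0 with the microglia covariate, 2 without both libraries rich in choroid plexus genes, and 2 to 4 when 1 library was left out. On the control diet (1), the count was 0 with the outside-genes covariate, 0 with the microglia covariate, 0 when only the groups compared were fitted, and 0 to 1 with 1 library left out. For the mean of both diets (4) it was 2 on library totals, 1 with the neuron covariate, 2 with the outside-genes covariate, 0 with the microglia covariate, and 2 to 4 with 1 library left out. For 15 against 6 weeks on the high-fat diet (0) it was 1 on library totals, 1 with the neuron covariate, 2 with the microglia covariate, 2 by voom, 1 by DESeq2, 2 without both libraries low in microglia genes, and 0 to 1 with 1 library left out. On the control diet (0) it was 1 with the neuron covariate, 1 by voom, 1 by DESeq2 and 1 without those libraries. Any difference (6) gave 2 with the microglia covariate, 4 with the outside-genes covariate, 5 on library totals, 5 without either pair of libraries and 4 to 6 with 1 library left out. Correlated pairs (14) numbered 4 after the neuron adjustment and 11 to 15 with 1 library left out. With the microglia covariate the sign turned for Cry2 on the high-fat diet (0.15) and, for the mean of both diets, Arntl (0.0862), Clock (0.0369), Cry2 (0.124) and Nr1d2 (0.013). The r of Arntl turned to -0.311 with Nr1d1 and -0.185 with Per1 after the neuron adjustment, and to -0.339 and -0.163 without both libraries low in microglia genes. With 1 library left out, r of Arntl ran from -0.311 to 0.0649 with Dbp, -0.0895 to 0.227 with Nr1d1 and -0.15 to 0.168 with Per1. The cause was not tested. The microglia covariate and both pairs of left-out libraries were chosen after seeing the data. No paired analysis was possible because replicate numbers follow accession order and pair no samples. The lowest count of a member was 203, for Cry1, and the part of depth in the members' spread was not tested. Having 3 libraries per sham group limits the precision.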
